A study of Homo sapiens with 136 samples.

Results

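The genes described here are 6 aldo-keto reductases of subfamily 1: AKR1C1, AKR1C2 and AKR1C3, the pair AKR1B1 and AKR1B10, and AKR1A1, a relative that belongs to neither the AKR1C nor the AKR1B group. They are 6 of 25435 gene symbols in the count table. They were matched by symbol, and the list itself was chosen by earlier measured values: in AsPC-1 cells, AKR1C genes had been seen to be higher with an inhibitor of Vps34 than with hydroxychloroquine, and higher again with MEK and ERK inhibitors. Those comparisons are therefore given as a description with no test. Tests are given for PANC-1 cells, for RAF inhibitors, for differences among drugs of a class, for MEK against ERK inhibitors, and for the autophagy inhibitors within the drug combinations.

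Aldo-keto reductases are cytosolic enzymes that use NADPH to reduce aldehydes and ketones to alcohols. AKR1C1 inactivates progesterone, AKR1C2 inactivates dihydrotestosterone, and AKR1C3 makes testosterone and prostaglandin F. AKR1B1 is aldose reductase, which turns glucose into sorbitol, AKR1B10 reduces retinaldehyde and other reactive carbonyls in gut epithelium and tumours, and AKR1A1 is a broad aldehyde reductase. AKR1C genes and AKR1B10 are known targets of NRF2, the transcription factor that drives antioxidant genes when its repressor KEAP1 is blocked.

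The study used 2 established human lines of pancreatic ductal adenocarcinoma, AsPC-1 and PANC-1, and PLATE-Seq, a pooled RNA sequencing method for cells lysed in plates. After 24 h in culture, cells received 24 h of an autophagy inhibitor, either hydroxychloroquine, which blocks the lysosome, or Compound 19, an inhibitor of the lipid kinase Vps34 that starts the autophagosome. A line has 6 libraries for each autophagy inhibitor by itself and 2 for each of its combinations with 14 drugs against the RAF-MEK-ERK kinase cascade, which makes 68 libraries per line and 60 groups in all. Every drug was given at a concentration that left 80% of cells viable after 48 h as a single agent, so doses were not matched between drugs. The RAF inhibitors were dabrafenib, GDC-0879, PLX8394, RAF709 and sorafenib. The MEK inhibitors were binimetinib, cobimetinib, refametinib, selumetinib and trametinib. The ERK inhibitors were AZD0364, ravoxertinib, SCH772984 and ulixertinib. All groups carry an autophagy inhibitor. Untreated cells, or cells with a kinase inhibitor as the only drug, were not analysed here. Below, "alone" means an autophagy inhibitor with no kinase inhibitor.

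The 3 AKR1C genes lie side by side on chromosome 10 (GRCh38, GENCODE v29), AKR1C1 at 4963253 to 4983283, AKR1C2 at 4987400 to 5018031 on the opposite strand, and AKR1C3 at 5035354 to 5107686. Their coding sequences are each 972 bases long. AKR1C1 and AKR1C2 differ at 19 of these bases (98% identical), while AKR1C3 is 91.5% identical to AKR1C1 and 91.0% to AKR1C2. The stretch from coding base 13 to base 162 is shown because it holds 11 of the 19 bases that tell AKR1C1 from AKR1C2, with capitals at each base that differs from AKR1C1.
AKR1C1: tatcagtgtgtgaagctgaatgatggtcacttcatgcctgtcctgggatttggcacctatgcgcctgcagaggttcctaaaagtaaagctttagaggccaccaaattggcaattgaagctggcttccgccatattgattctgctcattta
AKR1C2: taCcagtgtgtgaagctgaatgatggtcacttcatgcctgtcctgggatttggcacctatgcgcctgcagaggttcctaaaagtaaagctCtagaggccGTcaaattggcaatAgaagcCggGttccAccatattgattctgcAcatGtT
AKR1C3: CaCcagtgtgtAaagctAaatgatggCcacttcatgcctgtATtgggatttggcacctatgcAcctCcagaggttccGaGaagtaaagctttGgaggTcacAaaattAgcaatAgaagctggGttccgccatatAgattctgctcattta
In this stretch AKR1C2 differs from AKR1C1 at 11 of 150 bases and AKR1C3 at 18. The longest run without a difference between AKR1C1 and AKR1C2 in the coding sequence was 189 bases. Of all runs of 31 bases in the annotated transcripts, 35.43% of those of AKR1C1, 47.86% of those of AKR1C2 and 7.04% of those of AKR1C3 also occur in another AKR1C gene. A read from such a run cannot be given to 1 member, so the summed count of AKR1C1, AKR1C2 and AKR1C3 is used below as the main value, and the split between them is uncertain. AKR1B10 shares 18.8% of its 31-base runs with its neighbour AKR1B15, while AKR1B1 and AKR1A1 share none with the other genes searched.

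The bases before a RefSeq start of AKR1C1 and of AKR1C2 are nearly the same as well. For AKR1C2 this start lies inside the span of the gene given above, downstream of its outermost annotated end at 5018031. The AKR1C3 windows likewise lie inside the span of that gene. RefSeq promoter windows (GRCh38.p14) were found for 5 of the 6 members. Aligned over 246 bases, the AKR1C2 window matched that of AKR1C1 at 245 (99.6%), at an offset of 4 bases. The windows of AKR1C3 were 76.8% and 79.1% identical to AKR1C1. The parts before the exons that fall in the windows are shown for AKR1C1 and AKR1C2, the pair with the closest windows. They lie at chr10:4963165-4963252 on the plus strand and chr10:5004024-5004107 on the minus strand.
AKR1C1: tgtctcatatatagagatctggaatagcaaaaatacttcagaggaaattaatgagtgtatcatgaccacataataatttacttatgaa
AKR1C2: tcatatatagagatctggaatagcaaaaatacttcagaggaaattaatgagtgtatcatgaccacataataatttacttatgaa
Both strands of each 250-base window were searched for the letters TGACNNNGC, the core of the antioxidant response element that NRF2 binds, and TGANTCA, the site of AP-1. The first occurs in 10.9% of 35116 promoter windows and the second in 6.6%. Neither occurred in the 7 windows of members, which says only that these letters are not in these windows.

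The depth of a library was between 1419228 and 5871860 counts (medians 3351744.5 for AsPC-1 and 3636445.5 for PANC-1). Levels are CPM, a gene's count scaled to a fixed library total, with SD and n, and log2 fold changes ± SE. Adjusted p values come from edgeR's quasi-likelihood test with Benjamini-Hochberg adjustment over all genes of a comparison, and a gene is called where this is under 0.05. The sources do not state that replicates were separate cultures, so p values measure the spread between these libraries, which may be technical. In bulk RNA, fewer cells expressing a gene and less RNA per cell cannot be told apart. Sample titles carry codes ending in PSA or PSB, separate for each line. These are read here as plates A and B of that line, which the labels do not state. Line and code cannot be told apart, so the level of a gene in AsPC-1 and PANC-1 was not tested. The 6 epithelial markers summed to 2931 to 4036 CPM in AsPC-1 alone libraries and 579 to 759 CPM in PANC-1, and VIM, a mesenchymal filament, had medians of 3044 and 2811 CPM. Immune, endothelial and hepatocyte markers, 10 genes, summed to at most 11.9 CPM per list in any library. In both lines the ERK feedback genes DUSP6 and SPRY4 were lower with MEK, ERK and RAF inhibitors.

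The members differed in which line they were measured in. AKR1C1, AKR1C2, AKR1C3 and AKR1B10 had counts in every AsPC-1 library, and their AKR1C sum ran from 902 to 8442 CPM with a median of 4405. In PANC-1 the AKR1C sum held 130 counts over all 68 libraries, 17 libraries had none, and no library exceeded 2.67 CPM. AKR1B10 likewise had 5341 counts in AsPC-1 (4.50 to 55.7 CPM) and 88 in PANC-1, where 30 libraries were at 0. AKR1B1 showed the opposite: 147 counts in AsPC-1 with 28 libraries at 0, against 11193 counts and 23.1 to 75.3 CPM in PANC-1. AKR1A1 was measured in every library of both, at 3.83 to 26.6 CPM in AsPC-1 and 17.1 to 46.3 CPM in PANC-1. So 5 of the 6 members passed the filter on low counts in AsPC-1 and 2, AKR1A1 and AKR1B1, in PANC-1. AKR1C4, the liver member of the cluster and not in the sum, had 3370 counts in AsPC-1 and 0 of 245406176 in PANC-1, which allows at most 0.0122 CPM (3 counts over all libraries, counting error only).

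With an autophagy inhibitor alone in AsPC-1, the AKR1C sum was at 902, 906, 984, 1144, 922 and 1019 CPM in hydroxychloroquine replicates 1 to 6 (979 ± 93, SD, n = 6). With the Vps34 inhibitor it was at 1713, 1613, 1728, 2266, 1960 and 1873 CPM (1859 ± 234, n = 6). Every Vps34 inhibitor library lay above every hydroxychloroquine library, on plate A (1613 to 1728 against 902 to 984) and on plate B (1873 to 2266 against 922 to 1144). The fitted difference was 0.99 ± 0.07 on the log2 scale. Among the single genes it was 0.74 ± 0.18 for AKR1C1, 0.95 ± 0.08 for AKR1C2, 1.16 ± 0.10 for AKR1C3 and 1.03 ± 0.21 for AKR1B10. AKR1C1 went from 67.7 ± 8.58 to 108 ± 23.5 CPM, with 1 library of the Vps34 inhibitor (76.6 CPM) under the highest of hydroxychloroquine (77.1 CPM). AKR1C3 went from 271 ± 29.9 to 576 ± 70.8 CPM without overlap. Epithelial markers moved in this comparison too: EPCAM (−0.34 ± 0.09), KRT7 (−1.40 ± 0.31), KRT18 (−0.38 ± 0.07) and CDH1 (−0.94 ± 0.18) were called lower with the Vps34 inhibitor, 4 of 6 markers, and their part in the AKR1C values was not tested. AKR1A1 stood apart from the other members, with 10.1 ± 2.72 against 11.4 ± 2.08 CPM, overlapping groups and a difference of 0.25 ± 0.25. The comparison called 5.93% of all 12761 genes, and nothing is read from the members' place among them, since it chose them. AKR1C4 took the other sign, at 2.87 ± 0.54 CPM with hydroxychloroquine. With the Vps34 inhibitor it was at 1.48 ± 1.28 CPM (−0.88 ± 0.37, overlapping).

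MEK and ERK inhibitors went with the highest AKR1C levels of the series. With hydroxychloroquine the sum in MEK inhibitor libraries ran from 3257 through a median of 5450 to 6134 CPM (n = 10), and in ERK inhibitor libraries from 4699 through 6311 to 8408 CPM (n = 8). With the Vps34 inhibitor it ran from 3941 through 5529 to 7430 CPM (n = 10) and from 6148 through 6562 to 8442 CPM (n = 8). All 20 MEK and all 16 ERK inhibitor libraries lay above the highest of the 12 alone libraries, 2266 CPM. The log2 difference from alone, averaged over both autophagy inhibitors, was 2.0 ± 0.05 for MEK inhibitors and 2.33 ± 0.05 for ERK inhibitors.

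**Figure D1:**
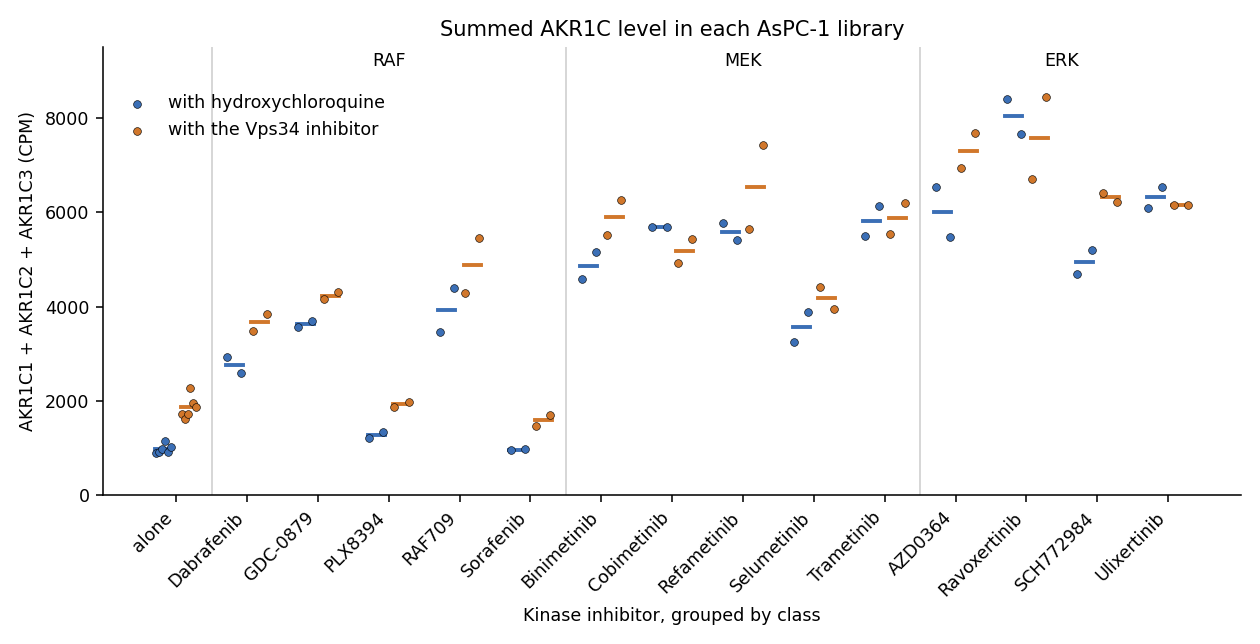
Summed CPM of AKR1C1, AKR1C2 and AKR1C3 in each of the 68 AsPC-1 libraries (points), by kinase inhibitor on the x axis and autophagy inhibitor by colour, with group means as bars. All MEK and ERK inhibitor libraries lie above every alone library. The sorafenib and PLX8394 libraries lie within the range of the alone libraries of both colours together, but not all within that of their own colour.

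Each AKR1C gene was higher with both classes. For MEK inhibitors the log2 differences were 2.12 ± 0.12 (AKR1C1), 2.05 ± 0.06 (AKR1C2) and 1.83 ± 0.06 (AKR1C3), and for ERK inhibitors 2.54 ± 0.13, 2.40 ± 0.06 and 2.04 ± 0.07. AKR1C2 held most of the counts, going from 908 ± 305 CPM alone (n = 12) to 3560 ± 617 with MEK inhibitors (n = 20) and 4505 ± 900 with ERK inhibitors (n = 16). AKR1C1 went from 87.6 ± 26.8 to 371 ± 114 and 488 ± 130 CPM, and AKR1C3 from 423 ± 167 to 1389 ± 277 and 1590 ± 272 CPM. For all 3 genes, each of the 36 libraries lay above every alone library. AKR1B10, on chromosome 7 (134527592 to 134541408) and 58.5% identical to AKR1C1 in coding sequence, had differences of 1.80 ± 0.13 and 2.01 ± 0.14. It went from 4.50 to 15.4 CPM alone to 16.8 to 43.0 CPM with MEK inhibitors, above every alone library in 20 of 20. With ERK inhibitors it ran from 12.4 to 55.7 CPM, above every alone library in 15 of 16, the exception being 1 library of SCH772984 with the Vps34 inhibitor. AKR1A1 (chromosome 1, 45550543 to 45570049) differed by 0.42 ± 0.16 and 0.25 ± 0.17, and 9 of 20 and 6 of 16 libraries exceeded every alone library. MEK and ERK inhibitors called 28.9% and 31.1% of all genes, and again nothing is read from the members' place among them.

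The same libraries differed from alone in other markers. The summed epithelial markers had a median of 3516 CPM alone, 5587 with MEK inhibitors and 5544 with ERK inhibitors, and 5 of the 6 genes were called higher with each class. VIM had a median of 3044 CPM alone against 1055 and 1105. The 5 fibroblast genes summed to a median of 62.3 CPM alone against 150 and 176, nearly all of it LUM, a proteoglycan (43.1 to 275 CPM over all libraries), while COL1A1, COL1A2, DCN and PDGFRB were each at most 5.55 CPM. The part of these shifts in the AKR1C values was not tested. Library totals overlapped between these groups.

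On the log2 scale, the effect of MEK and ERK inhibitors on the AKR1C sum was smaller on top of the Vps34 inhibitor than on top of hydroxychloroquine. The starting levels differed. By mean, the sum went from 979 CPM alone to 5106 (MEK) and 6327 (ERK) with hydroxychloroquine. With the Vps34 inhibitor it went from 1859 to 5533 and 6840 CPM. Against their own alone libraries, MEK inhibitors differed by 2.37 ± 0.07 with hydroxychloroquine and 1.63 ± 0.07 with the Vps34 inhibitor, and ERK inhibitors by 2.68 ± 0.08 and 1.98 ± 0.07. The difference of these differences was −0.74 ± 0.09 for MEK inhibitors, −0.70 ± 0.10 for ERK inhibitors and −0.43 ± 0.09 for RAF inhibitors. It was near that for AKR1C2 (−0.76 ± 0.10 and −0.74 ± 0.11 for MEK and ERK inhibitors) and AKR1C3 (−0.80 ± 0.12 and −0.74 ± 0.12), with wider errors for AKR1C1 (−0.61 ± 0.23 and −0.49 ± 0.24) and AKR1B10 (−0.60 ± 0.25 and −0.76 ± 0.26). One of its terms is the alone comparison, which chose the members, so no p value is given.

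RAF inhibitors raised the AKR1C genes less and not with every drug. Over the class the sum was higher by 0.93 ± 0.05 (edgeR adjusted p = 1.05e-22), and 12 of 20 libraries lay above every alone library. AKR1C1 rose by 1.03 ± 0.12, AKR1C2 by 0.93 ± 0.05, AKR1C3 by 0.88 ± 0.06 and AKR1B10 by 0.74 ± 0.13 (adjusted p from 3.55e-21 to 4.48e-05), while AKR1A1 was at 0.06 ± 0.16 (adjusted p = 0.901). Thus 4 of the 5 measured members rose, against 8.66% of all genes called. AKR1C1, AKR1C2 and AKR1C3 share sequence, so their calls are not separate. This comparison shares its 12 alone libraries with those that chose the members. Within plate B alone, with the 5 drugs as replicates, the sum was at 1.07 but no longer called (edgeR adjusted p = 0.0863). The same held there for AKR1C1 (1.14, adjusted p = 0.153), AKR1C2 (1.09, adjusted p = 0.0998) and AKR1C3 (0.99, adjusted p = 0.083). In such fits the AKR1B10 call ended on plate A (0.98, adjusted p = 0.0631) and on plate B (0.84, adjusted p = 0.218). Among the markers, KRT18, KRT19 and CDH1 were called higher with RAF inhibitors and VIM lower (−0.68 ± 0.04), and their part was not tested.

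The RAF class split by drug. With RAF709 the sum was at 3458 and 4397 CPM on plates A and B with hydroxychloroquine and at 4297 and 5455 with the Vps34 inhibitor, a rise of 1.76 ± 0.07. With GDC-0879 it was at 3566, 3696, 4157 and 4307 CPM in the same order, a rise of 1.54 ± 0.07. With dabrafenib it was at 2926, 2588, 3489 and 3844 CPM, a rise of 1.23 ± 0.07. All 12 of these libraries lay above every alone library, and the 3 rises were called by edgeR (adjusted p from 2.19e-29 to 6.45e-21). The comparison of each drug with alone uses the alone libraries of the comparisons that chose the members. With PLX8394 the sum was at 1212 and 1343 CPM with hydroxychloroquine and at 1874 and 1980 with the Vps34 inhibitor. With sorafenib it was at 950 and 982 CPM and at 1465 and 1702 CPM. These 8 libraries lay within the range of the 12 alone libraries. Against the same autophagy inhibitor, both PLX8394 libraries with hydroxychloroquine lay above its alone libraries, and 1 sorafenib library with the Vps34 inhibitor lay below its alone libraries. Neither drug was called: 0.24 ± 0.07 (95% interval 0.09 to 0.38, adjusted p = 0.13) for PLX8394 and −0.13 ± 0.07 (−0.28 to 0.02, adjusted p = 0.751) for sorafenib.

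AKR1B10 split the drugs alike, in the average over both autophagy inhibitors. By mean level the order differed: dabrafenib (16.9 CPM) was above GDC-0879 (15.5) with hydroxychloroquine, and GDC-0879 (29.1) above RAF709 (28.1) and sorafenib (9.13) above PLX8394 (8.70) with the Vps34 inhibitor, each with overlapping libraries. It rose by 1.54 ± 0.18 with RAF709, 1.27 ± 0.19 with GDC-0879 and 1.02 ± 0.19 with dabrafenib (edgeR adjusted p from 2.34e-09 to 3.29e-04). It was at 0.14 ± 0.21 with PLX8394 (−0.28 to 0.57, adjusted p = 0.901) and −0.26 ± 0.21 with sorafenib (−0.69 to 0.17, adjusted p = 0.864). AKR1A1 was called with none of the 5 drugs. The count of members called was 4 of 5 with dabrafenib, GDC-0879 and RAF709, where 3.05%, 10.9% and 12.7% of all genes were called, and 0 of 5 with PLX8394 and sorafenib, where 0.76% and 0.102% were. These counts rest on the alone libraries of the comparisons that chose the members. The AKR1C genes also share sequence, so their calls are not separate. By unadjusted p under 0.05, edgeR had 2 of 5 with PLX8394 (AKR1C1 at 0.51 and AKR1C2 at 0.25) and 1 of 5 with sorafenib (AKR1C2 at −0.22), and DESeq2 called none of the 5 with either drug. A test of the 5 drugs against each other found differences for the sum (F = 153, adjusted p = 4.04e-26), for each AKR1C gene and for AKR1B10 (adjusted p = 7.75e-08), but not for AKR1A1 (adjusted p = 0.9). It called 10.6% of all genes. The drugs are compared as dosed here.

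**Figure D2:**
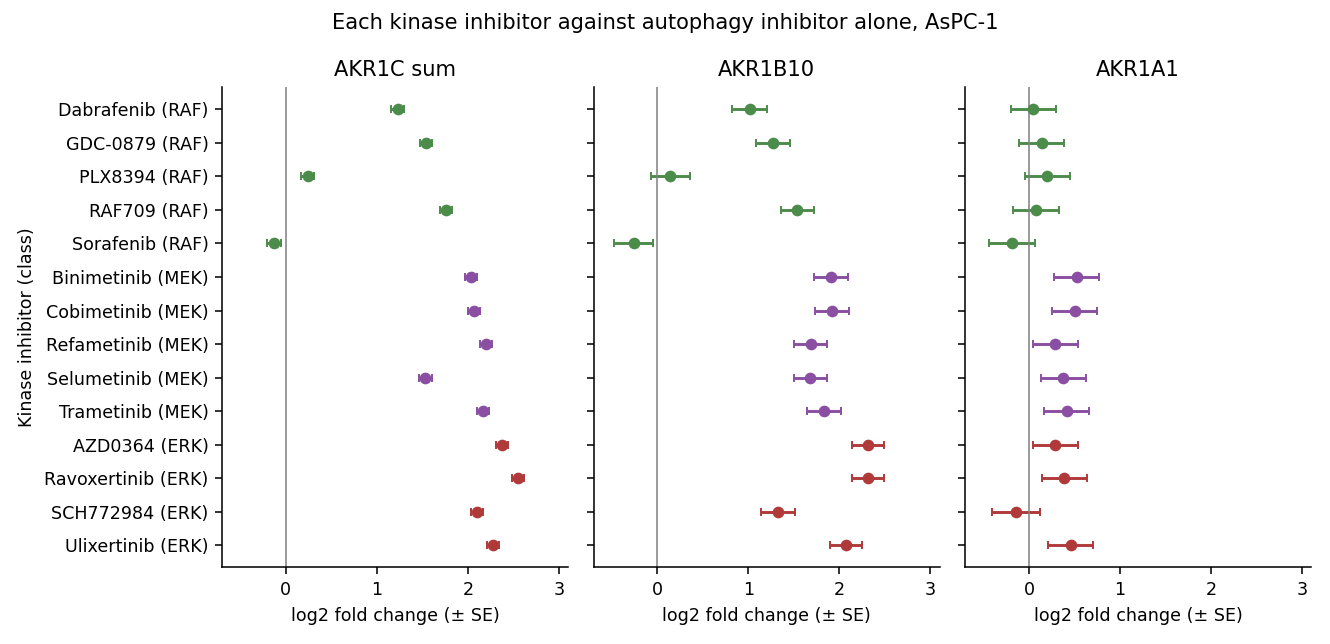
Log2 fold change (± SE, x axis) of the AKR1C sum, AKR1B10 and AKR1A1 in AsPC-1 for each of the 14 kinase inhibitors against autophagy inhibitor alone, coloured by class. For the sum and AKR1B10, PLX8394 and sorafenib sit near 0 while RAF709, GDC-0879 and dabrafenib sit above 1, and AKR1A1 lies between −0.18 and 0.52 over the 14 drugs.

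Drugs within the MEK and ERK classes differed less. Among MEK inhibitors the sum differed by drug (F = 16.5, edgeR adjusted p = 1.88e-05): selumetinib had the lowest value, 1.53 ± 0.07, with 3257 and 3879 CPM beside hydroxychloroquine and 4414 and 3941 CPM beside the Vps34 inhibitor. The other 4 lay between 2.04 and 2.20. AKR1C2 (adjusted p = 5.02e-05) and AKR1C3 (adjusted p = 0.0116) passed this test, and AKR1C1, AKR1B10 and AKR1A1 did not (adjusted p = 0.377, 0.965 and 0.998), where 0.627% of all genes were called. Among ERK inhibitors the sum again differed (F = 8.55, adjusted p = 0.016), with ravoxertinib at 2.55 ± 0.07 and SCH772984 at 2.10 ± 0.07. AKR1C2 (adjusted p = 7.13e-04) and AKR1B10 (adjusted p = 0.0292) passed, where 1% of all genes did. For AKR1B10, SCH772984 was lowest at 1.33 ± 0.19 (23.5, 22.4, 28.0 and 12.4 CPM), against 2.07 to 2.32 for the other 3. The value for SCH772984 rests on few counts: it was 0.99 without replicate 1 of the libraries with the Vps34 inhibitor.

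Averaged over the drugs of a class as dosed here, AKR1C genes were higher with ERK than with MEK inhibitors. Single drugs crossed between the classes. With hydroxychloroquine the sum with the ERK inhibitor SCH772984 (4947 CPM) was below that with trametinib (5813), cobimetinib (5689) and refametinib (5593). The sum was lower by 0.33 with MEK than with ERK inhibitors (−0.33 ± 0.04, edgeR adjusted p = 3.29e-06). AKR1C2 (−0.35 ± 0.05, adjusted p = 5.6e-06), AKR1C1 (−0.42 ± 0.10) and AKR1C3 (−0.21 ± 0.05, both adjusted p = 0.0375) were lower as well. AKR1B10 (−0.20 ± 0.11, adjusted p = 0.529) and AKR1A1 (0.17 ± 0.15, adjusted p = 0.774) were not called. So 3 of 5 members passed, all of them AKR1C genes that share sequence, against 0.744% of all genes. The libraries compared are among those of the MEK and ERK comparisons that chose the members. The call for the sum ended when the drugs of a class were taken as replicates (−0.32, adjusted p = 0.534). The calls for AKR1C1 and AKR1C3 also ended without any 1 of the 4 sets of replicates and without the plate term (−0.41, adjusted p = 0.0576, and −0.21, adjusted p = 0.189).

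By level, the order of the 15 treatments with hydroxychloroquine had ravoxertinib on top (8037 CPM), then ulixertinib (6316), AZD0364 (6006), trametinib (5813), cobimetinib (5689), refametinib (5593), SCH772984 (4947) and binimetinib (4865). Below these came RAF709 (3927), GDC-0879 (3631), selumetinib (3568), dabrafenib (2757), PLX8394 (1277), no kinase inhibitor (979) and sorafenib (966). In 8 of the 14 steps of this order the neighbours overlapped. With the Vps34 inhibitor the order again began with ravoxertinib (7573 CPM) and ended with PLX8394 (1927), no kinase inhibitor (1859) and sorafenib (1584), and 10 of 14 neighbours overlapped.

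Within the combinations, the Vps34 inhibitor again went with higher AKR1C levels than hydroxychloroquine. This comparison uses none of the alone libraries and was added after the data were seen. Its libraries with MEK and ERK inhibitors are among those of the comparisons that chose the members. With RAF inhibitors the sum was 0.56 ± 0.06 higher (edgeR adjusted p = 7.83e-11), in 10 of 10 pairs of libraries with the same drug and plate. With MEK inhibitors it was 0.24 ± 0.06 higher (adjusted p = 0.00206), in 7 of 10 pairs, and with ERK inhibitors 0.29 ± 0.06 higher (adjusted p = 0.00115), in 6 of 8 pairs. Cobimetinib, ravoxertinib and ulixertinib had mean levels that were lower with the Vps34 inhibitor: 5183 against 5689, 7573 against 8037 and 6156 against 6316 CPM. Over all 14 drugs the sum was 0.37 ± 0.03 higher (adjusted p = 3.04e-13), in 23 of 28 pairs. The call with MEK inhibitors ended without the plate block (0.23, adjusted p = 0.0512) and without replicate 2 of the libraries with the Vps34 inhibitor (0.21, adjusted p = 0.124), and the call with ERK inhibitors without replicate 2 of those with hydroxychloroquine (0.21, adjusted p = 0.0994).

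Among the AKR1C genes AKR1C3 had the largest differences between the autophagy inhibitors, with RAF (0.71 ± 0.07), MEK (0.36 ± 0.07) and ERK inhibitors (0.42 ± 0.08; edgeR adjusted p from 6.00e-11 to 2.46e-04). AKR1C2 was higher by 0.49 ± 0.06, 0.19 ± 0.06 and 0.21 ± 0.07 (adjusted p = 3.22e-08, 0.032 and 0.0355). In pairs of the same drug and plate, all 3 AKR1C genes were higher in 10 of 10 with RAF inhibitors. With MEK inhibitors AKR1C3 was higher in 8 of 10 pairs, AKR1C2 in 6 and AKR1C1 in 4. With ERK inhibitors these counts were 7, 4 and 3 of 8. AKR1C1 was higher with RAF inhibitors (0.60 ± 0.14, adjusted p = 0.00251) and not called with MEK (0.13 ± 0.14) or ERK inhibitors (0.25 ± 0.15). AKR1B10 was higher with RAF (0.49 ± 0.16, adjusted p = 0.025) and MEK inhibitors (0.43 ± 0.14, adjusted p = 0.034) and not called with ERK inhibitors (0.27 ± 0.16, adjusted p = 0.3). AKR1A1 took another pattern, called with ERK inhibitors (0.99 ± 0.22, adjusted p = 0.00104) and not with MEK (0.41 ± 0.19, adjusted p = 0.165) or RAF inhibitors (0.33 ± 0.20, adjusted p = 0.298). The members called were 4 of 5 with RAF, 3 with MEK and 3 with ERK inhibitors, and 5 over all drugs. The shares of all genes called were 12.8%, 13.1%, 12.3% and 31.1%. The AKR1C genes share sequence, so their calls are not separate. The calls of AKR1C2 with MEK and ERK inhibitors ended without the plate block (0.19 and 0.21, both adjusted p = 0.152) and in 3 of 4 fits without a set of replicates, and those of AKR1B10 in all 4. The call of AKR1C1 with RAF inhibitors ended without replicate 2 of the libraries with hydroxychloroquine (0.39, adjusted p = 0.218). Its call over all drugs ended without that same set (0.27, edgeR adjusted p = 0.0897). It also ended without replicate 2 of the libraries with the Vps34 inhibitor (0.24, edgeR adjusted p = 0.0982). With drugs of a class as replicates the AKR1C3 calls ended for MEK and ERK inhibitors (0.38 and 0.43, adjusted p = 0.221 and 0.202), and that for RAF inhibitors ended within each plate (0.65 and 0.66, adjusted p = 0.229 and 0.301). For the sum, each of the 3 class calls ended when drugs of a class were taken as replicates (adjusted p from 0.125 to 0.549). Library totals were lower with the Vps34 inhibitor in these groups, with medians of 2593017.5 against 3475763 for ERK inhibitors, and their part was not tested.

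**Figure D3:**
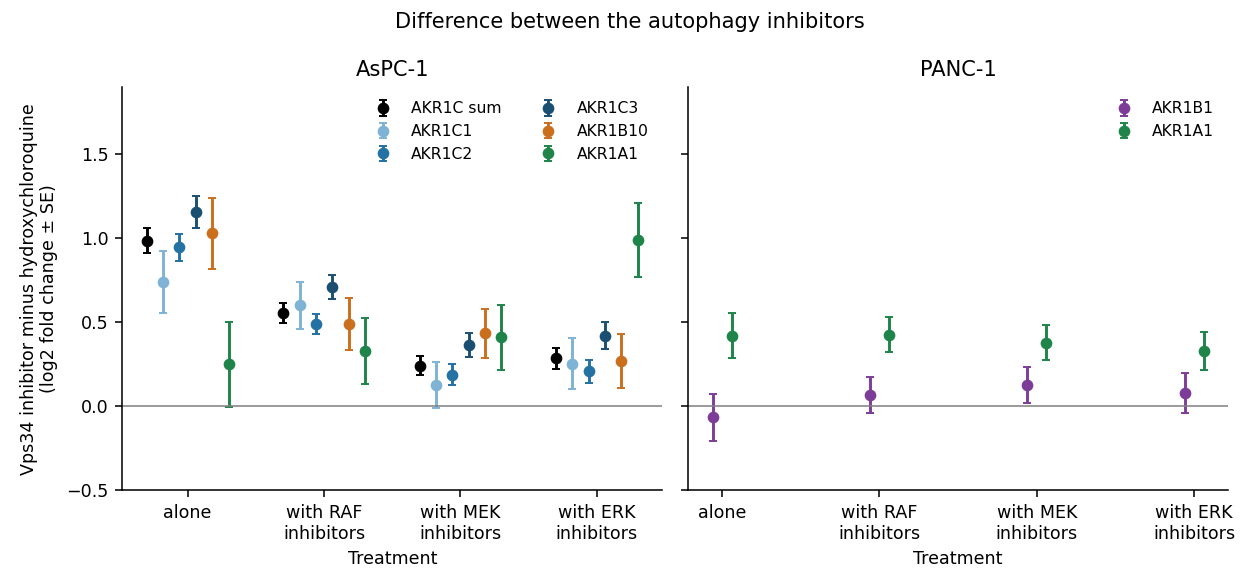
Log2 difference (± SE, y axis) between the Vps34 inhibitor and hydroxychloroquine for each measured gene, with the autophagy inhibitor alone and within each kinase inhibitor class, in AsPC-1 (left) and PANC-1 (right). In AsPC-1 the AKR1C sum falls from 0.99 alone to 0.56 with RAF, 0.24 with MEK and 0.29 with ERK inhibitors, and in PANC-1 AKR1A1 stays between 0.33 and 0.43.

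AKR1A1 with ERK inhibitors in AsPC-1 rests on small counts. With hydroxychloroquine it was at 3.83 to 15.3 CPM with a median of 11.1 (n = 8), and with the Vps34 inhibitor at 10.0 to 26.6 CPM with a median of 16.3 (n = 8). The groups overlapped, and 7 of 8 pairs were higher with the Vps34 inhibitor. The call ended without replicate 2 of the libraries with hydroxychloroquine (0.70, adjusted p = 0.125) or with the Vps34 inhibitor (0.75, adjusted p = 0.0947), and on plate A alone the difference was 0.51 (adjusted p = 0.348). AZD0364 showed the widest spread, with 11.1 and 3.83 CPM against 12.3 and 26.6 CPM.

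The split of AKR1C counts shifted slightly with treatment. The share of counts assigned to AKR1C3 was 27.7% ± 2.11 with hydroxychloroquine alone and 31.03% ± 1.98 with the Vps34 inhibitor alone (SD, n = 6 each, overlapping). It was 24.9% ± 1.80 and 27.3% ± 0.95 with MEK inhibitors (n = 10 each), and 23.0% ± 3.29 and 25.8% ± 4.49 with ERK inhibitors (n = 8 each). Between libraries of the same drug and plate it was higher with the Vps34 inhibitor in 9 of 10 pairs for RAF, 8 of 10 for MEK and 6 of 8 for ERK inhibitors. AKR1C1 held 5.83% to 7.46% of the sum by group mean. Sorafenib had the highest AKR1C3 share of the drugs (33.1% and 33.8%) and ravoxertinib the lowest (20.5% and 19.2%). These shares are of counts, not per length, and depend on how reads were split between paralogs.

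**Figure D4:**
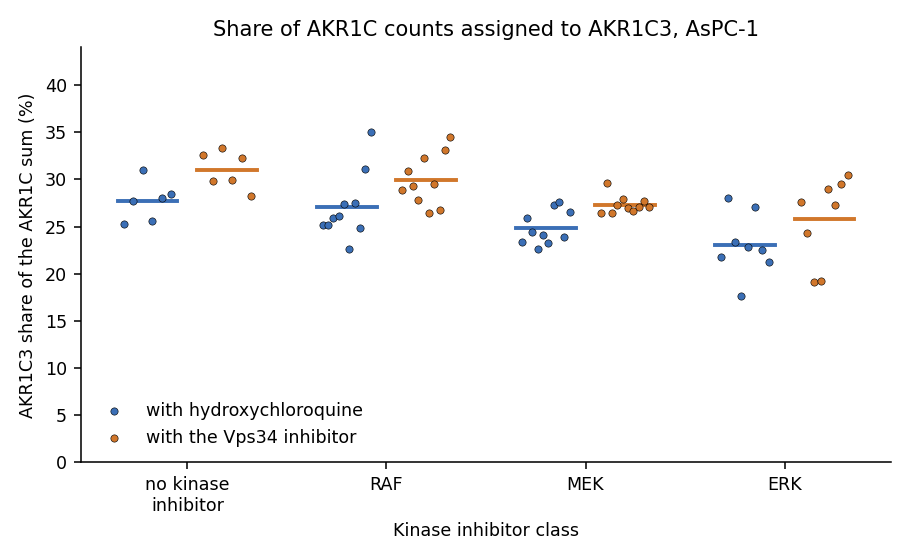
Share of the AKR1C counts assigned to AKR1C3 (%, y axis) in each AsPC-1 library, by kinase inhibitor class and autophagy inhibitor, with group means as bars. The means run from 27.7% and 31.03% without a kinase inhibitor to 23.0% and 25.8% with ERK inhibitors, and the groups overlap.

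In PANC-1 the kinase inhibitors changed neither measured member past the threshold. AKR1A1 was at 25.1, 22.9, 18.0, 30.8, 26.9 and 28.0 CPM in hydroxychloroquine replicates 1 to 6 (25.3 ± 4.46) and at 31.4, 28.3, 43.4, 30.8, 36.6 and 33.3 CPM with the Vps34 inhibitor (33.97 ± 5.38). The groups overlapped, with 2 libraries of the Vps34 inhibitor under the highest of hydroxychloroquine, and the difference of 0.42 ± 0.13 was not called (edgeR adjusted p = 0.0761). Against alone, AKR1A1 was at −0.08 ± 0.08 with MEK, −0.00 ± 0.09 with ERK and −0.13 ± 0.08 with RAF inhibitors (adjusted p = 0.572, 1 and 0.546). AKR1B1 (chromosome 7, 134442350 to 134459284) was at 46.4, 30.4, 40.2, 51.3, 44.6 and 48.5 CPM with hydroxychloroquine and at 46.1, 35.8, 26.2, 42.2, 53.2 and 48.0 CPM with the Vps34 inhibitor. Its groups overlapped throughout (−0.07 ± 0.14, adjusted p = 0.892). It was at 0.10 ± 0.09 with MEK, 0.11 ± 0.09 with ERK and −0.01 ± 0.09 with RAF inhibitors (adjusted p = 0.484, 0.517 and 0.979). The 95% intervals of these 6 class effects lay between −0.30 and 0.29. In these 4 comparisons edgeR called 0 of 2 measured members, as did DESeq2, and 1 difference, that of AKR1A1 alone, had an unadjusted p under 0.05. This stands against 2.49% (alone), 18.5% (MEK), 14.1% (ERK) and 0.539% (RAF) of 12627 genes.

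AKR1A1 was higher with the Vps34 inhibitor than with hydroxychloroquine in the PANC-1 combinations. The difference was 0.38 ± 0.10 with MEK (edgeR adjusted p = 0.0188), 0.43 ± 0.10 with RAF (adjusted p = 0.00683) and 0.33 ± 0.11 with ERK inhibitors (adjusted p = 0.0938, not called). It was 0.38 ± 0.06 over all 14 drugs (adjusted p = 6.41e-06). Of 28 pairs of the same drug and plate, 27 were higher with the Vps34 inhibitor. AKR1B1 was at 0.09 ± 0.06 over all drugs (adjusted p = 0.336), higher in 20 of 28 pairs. The members called were 1 of 2 with MEK, 0 with ERK, 1 with RAF and 1 over all drugs, and 6.23%, 4.24%, 6.57% and 20.9% of all genes were called. The calls with MEK and RAF inhibitors did not hold within a single plate: 0.22 and 0.26 on plate A, 0.52 and 0.61 on plate B (adjusted p from 0.0768 to 0.735). The call for MEK inhibitors was also lost in 3 of 4 fits without a set of replicates and that for RAF inhibitors in 2 of 4, while the call over all drugs held in all 4 (0.27 to 0.51).

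**Figure D5:**
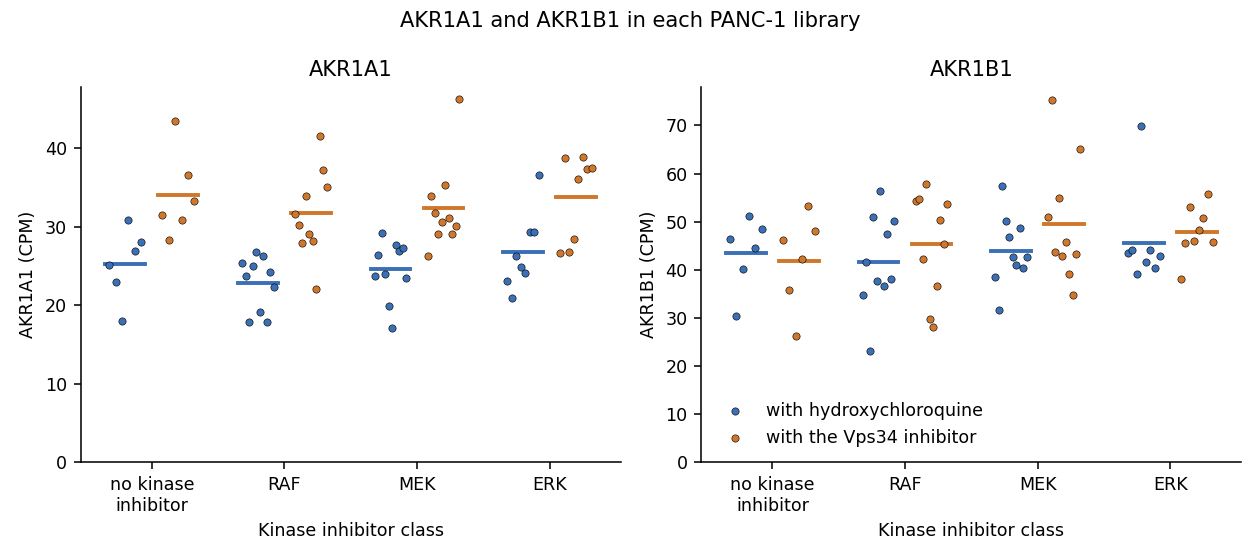
CPM of AKR1A1 (left) and AKR1B1 (right) in each of the 68 PANC-1 libraries, by kinase inhibitor class on the x axis and autophagy inhibitor by colour, with group means as bars. AKR1A1 means are 22.8 to 26.8 CPM with hydroxychloroquine and 31.7 to 33.97 CPM with the Vps34 inhibitor, while AKR1B1 means overlap at 41.7 to 49.6 CPM.

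AKR1A1 is the member whose response can be set side by side in both lines. The effect in PANC-1 minus that in AsPC-1 was 0.17 ± 0.27 for the autophagy inhibitors alone, −0.50 ± 0.17 for MEK inhibitors and −0.25 ± 0.18 for ERK inhibitors. These hold an AsPC-1 comparison that chose the members and are not tested. For RAF inhibitors it was −0.20 ± 0.17 (edgeR adjusted p = 0.722), where 1.68% of 13960 genes were called.

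Other NRF2 targets in AsPC-1 moved in part with the members. Of 39 tested genes in a list of known targets without the members, the Vps34 inhibitor alone had 12 higher and 0 lower, with a median of 0.38 against 0.01 over all genes. With MEK inhibitors 20 were higher and 2 lower (median 0.32 against −0.05), with ERK inhibitors 23 and 4 (0.51 against −0.06), and with RAF inhibitors 11 and 2 (0.18 against −0.04). Over all genes 3.21%, 12.9%, 13.7% and 3.75% were higher and 2.72%, 16.1%, 17.4% and 4.91% lower in these 4 comparisons. NQO1, a quinone reductase, was called higher in all 4 comparisons (0.30 ± 0.07, 0.48 ± 0.05, 0.60 ± 0.05 and 0.16 ± 0.05), in each case less than the AKR1C sum. GPX2, a glutathione peroxidase of gut epithelium, rose with MEK (2.90 ± 0.29), ERK (3.24 ± 0.30) and RAF inhibitors (1.18 ± 0.31) and was at −0.50 ± 0.51 alone. HMOX1, heme oxygenase, rose with MEK (2.27 ± 0.53) and ERK inhibitors (3.22 ± 0.54). It rests on few counts in AsPC-1, with a median of 2.20 CPM, a maximum of 15.5 CPM and 7 libraries at 0. ALDH3A1, an aldehyde dehydrogenase, rose alone (0.60 ± 0.12) and with MEK (0.95 ± 0.08) and ERK inhibitors (0.98 ± 0.08). TXNRD1, thioredoxin reductase, rose alone (0.51 ± 0.11) and with MEK (0.34 ± 0.07) and ERK inhibitors (0.57 ± 0.07).

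The list did not move as a whole. GCLM, a subunit of the enzyme that starts glutathione synthesis, rose alone (0.87 ± 0.23) and with ERK inhibitors (0.65 ± 0.15) but was at 0.23 ± 0.14 with MEK inhibitors (edgeR adjusted p = 0.239). SLC7A11, the cystine transporter, fell with the kinase inhibitors, where the AKR1C genes rose: −1.69 ± 0.14 with MEK, −1.90 ± 0.15 with ERK and −0.71 ± 0.14 with RAF inhibitors. It was not called lower with the Vps34 inhibitor alone, where the AKR1C genes rose as well. SRXN1, sulfiredoxin, was called in none of the 4 comparisons. Nor were NFE2L2, which encodes NRF2 (0.22 ± 0.17 with MEK and 0.26 ± 0.17 with ERK inhibitors), and KEAP1 (0.02 ± 0.11 and −0.29 ± 0.12, adjusted p = 0.0538 for the latter). In PANC-1, where the AKR1C genes were nearly absent, RAF inhibitors had 0 of 35 targets higher and 0 lower (median −0.04 against −0.03 over all genes). With MEK inhibitors 16 were higher and 3 lower, with ERK inhibitors 11 and 2, and with the Vps34 inhibitor alone 6 and 1. Over all genes 7.9%, 5.45% and 1.31% were higher and 10.6%, 8.68% and 1.18% lower, in that order. There HMOX1 rose by 0.67 ± 0.14, 1.09 ± 0.14 and 1.69 ± 0.22.

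Of the related reductases outside the members, AKR1C4 rose with MEK (3.27 ± 0.21), ERK (3.61 ± 0.22) and RAF inhibitors (1.54 ± 0.22) in AsPC-1, from 2.18 ± 1.18 CPM alone to 20.9 ± 8.55, 25.3 ± 8.84 and 8.11 ± 6.70 CPM. It shares 10.76% of its 31-base runs with other AKR1C genes, and it was higher with the Vps34 inhibitor in 8 of 28 pairs, against 23 of 28 for the sum. AKR7A3 rose with MEK (0.65 ± 0.24) and ERK inhibitors (0.71 ± 0.25). AKR7A2 and AKR1B15 were called in none of these comparisons.

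Across the 30 treatment means of AsPC-1, the AKR1C genes followed each other closely, with Pearson r of log2(CPM + 1) of 0.977 to 0.998 between each gene and the sum, of which each is a part. AKR1B10 had r = 0.937 with the sum and AKR1A1 0.352. Among 8991 other genes the values most like the sum were those of UNC5B, a netrin receptor (0.946), ELF3, an epithelial transcription factor (0.939), and CYP4F12, a cytochrome P450 (0.939). SPRY4, a feedback inhibitor of the ERK pathway, had r = −0.945. The values most like AKR1B10 were those of AGR2 (0.893), APOL1 (0.888) and EPHX1 (0.884), and most like AKR1A1 those of CNFN (0.714), SCP2 (0.714) and NBDY (0.709). In PANC-1, over 9462 genes, they were CUTC (0.741), ATP5F1B (0.658) and VPS72 (0.655) for AKR1B1 and PRAF2 (0.866), EIF4EBP1 (0.85) and NT5M (0.846) for AKR1A1. The 30 means share plates, alone groups and drug classes, so these values are a description.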

How the data were processed

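The authors deposited whole-number counts per gene symbol, with no normalisation. The submitters' processing notes list kallisto 0.44.0 and GRCh38. What each was used for, the annotation, and how reads shared by AKR1C paralogs were divided were not given in the labels or headers. A summed AKR1C count was therefore fitted as 1 row in place of AKR1C1, AKR1C2 and AKR1C3.

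The members and gene lists were chosen with earlier results of these data known. AsPC-1 comparisons of MEK or ERK inhibitors with alone, or of the autophagy inhibitors alone, carry no p value for members, interactions included. Comparisons among drugs of a class and of MEK with ERK inhibitors do carry p values. In these the alone groups cancel, but they use drug libraries of the comparisons that chose the members. Comparisons of RAF inhibitors with alone also carry p values. They use alone libraries of the comparisons that chose the members. The difference between autophagy inhibitors within combinations was added after the data were seen. In AsPC-1 its libraries with MEK and ERK inhibitors are among those of the comparisons that chose the members.

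Each line was fitted over its 68 libraries with edgeR 4.0.16 in R 4.3.3, with plate as a block and 37 residual degrees of freedom. The fit was quasi-likelihood and robust, with TMM scaling, and filterByExpr used the treatment groups. It tested 12761 genes in AsPC-1 (12759 with the sum) and 12627 in PANC-1. Class effects average the drug groups of a class and compare them with the alone groups of the same autophagy inhibitors. Tests were two-sided, with Benjamini-Hochberg adjustment within a comparison and a threshold of 0.05. Whether plate numbers pair libraries was checked over 435 pairs of treatments: deviations had a median correlation of 0.0344 (AsPC-1) and 0.0544 (PANC-1), above 0.1 in 5.75% and 23.9% of pairs. DESeq2 1.42.0 was an alternative. The genes named were all members, 8 NRF2 targets, NFE2L2 and KEAP1, 4 related reductases, and the 3 genes most like each member among those with a mean of at least 5 CPM. DUSP6, SPRY4, the markers, LUM and the aldehyde dehydrogenases were named outside that rule, after their values were seen. The scripts were tested on simulated data. Coding sequences came from GENCODE v29 and promoter windows from RefSeq.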

Additional observations from a re-analysis of the deposited data

Results flagged for a closer look

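In AsPC-1 with hydroxychloroquine alone, AKR1C2 in replicate 4 was at 773.74 CPM, apart from the other 5 libraries, the nearest of which was at 651.39 CPM. That gap took up more of the range of the 6 libraries than is usual for a group of this size. Of 16 groups of alone libraries examined in this way, 1 stood out, and chance gives about 1 in 20. Without that replicate the difference of the AKR1C sum between the autophagy inhibitors alone was 1.03 on the log2 scale, against 0.99 with it.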

How the results depend on the processing

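Over 208 results, 26 other settings gave 2626 values, of which 99 lost a call, 7 moved and 8 values given with no test changed sign. The other 2512 were counted as the same. For tested results this means that they kept their side of the threshold. Values given with no test were counted as the same if they kept their sign and shifted by less than the pooled SD of replicates. Whether those values kept a call was not examined. Of the 2512, 77 tested values, called in neither fit, changed sign, mostly for AKR1B1 and AKR1A1. In 7 other fits of the same libraries (scaling, filter, plate block, DESeq2 and the like), 1139 of 1146 values were the same in this sense. Fits that take drugs of a class as replicates, within a plate or over both, ended the calls below, and the cause was not tested. The AKR1C sum with RAF inhibitors was at 1.07 on plate B (adjusted p = 0.0863). MEK minus ERK inhibitors was at −0.32 over both plates, −0.37 on plate A and −0.26 on plate B (edgeR adjusted p = 0.534, 0.888 and 0.961).

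Without the replicate block for plate, the sum with MEK inhibitors differed between autophagy inhibitors by 0.23 (edgeR adjusted p = 0.0512), which ended that call.

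Leaving out replicates in turn, the AKR1C sum ranged from 0.93 to 1.03 alone, 1.98 to 2.03 with MEK, 2.29 to 2.36 with ERK and 0.91 to 0.96 with RAF inhibitors. MEK minus ERK ran from −0.36 to −0.29. The interactions with the autophagy inhibitor ran from −0.78 to −0.73 (MEK), −0.77 to −0.64 (ERK) and −0.46 to −0.39 (RAF). In PANC-1, AKR1A1 ran from 0.34 to 0.47 alone, −0.15 to −0.01 with MEK, −0.03 to 0.04 with ERK and −0.23 to −0.06 with RAF inhibitors, and 0.27 to 0.51 between autophagy inhibitors over all drugs.

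The values given with no test changed sign in these cases. The AKR1C1 interaction with RAF inhibitors (−0.14) was at 0.13 without replicate 1 of the hydroxychloroquine combinations. The AKR1A1 interaction with MEK inhibitors (0.16) was at −0.046 on plate B and −0.037 without replicate 1 of the Vps34 inhibitor combinations, and that with RAF inhibitors (0.08) at −0.063 on plate A and −0.12 without replicate 2 of them. AKR1A1 with AZD0364 (0.29) was at −0.28 without replicate 1 of the hydroxychloroquine combinations and −0.056 without replicate 2 of the Vps34 inhibitor combinations, and with SCH772984 (−0.14) at 0.022 without replicate 2 of the hydroxychloroquine combinations.

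Counts of called genes fell in fits of a single plate with drugs of a class as replicates (A, then B): in AsPC-1 from 757 to 98 and 21 (alone), 3692 to 2273 and 1571 (MEK), 3971 to 2685 and 1812 (ERK), 1105 to 121 and 16 (RAF), against 561, 3481, 3767 and 801 with drugs as replicates over both plates. In PANC-1 they fell from 314 to 6 and 3, 2332 to 689 and 855, 1784 to 475 and 511, and 68 to 0 and 1. PANC-1 alone had 140 calls in a fit of the compared libraries and 137 with drugs as replicates over both plates, and PANC-1 RAF had 143 by DESeq2 and 18 with drugs as replicates. Few of the 3 genes most like a member were kept within a plate (0 to 2). Counts of AKR1A1 and AKR1B10 in AsPC-1, at least 9 per library, limit their precision.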

Other observations

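Aldehyde dehydrogenases, which oxidise aldehydes where aldo-keto reductases reduce them, included genes called higher and none called lower in 4 AsPC-1 comparisons. Of 13 tested, the Vps34 inhibitor alone had 3 higher and 0 lower, against 9 and 0 with MEK inhibitors, 8 and 0 with ERK inhibitors, and 2 and 0 with RAF inhibitors by edgeR's quasi-likelihood test. Over all genes 3.21%, 12.9%, 13.7% and 3.75% were higher and 2.72%, 16.1%, 17.4% and 4.91% lower, in that order. The medians of the aldehyde dehydrogenases were 0.38, 0.40, 0.41 and 0.19, against 0.01, −0.05, −0.06 and −0.04 over all genes. ALDH3A1 is also in the list of NRF2 targets. ALDH1A1, a retinaldehyde dehydrogenase, had larger log2 differences than the AKR1C sum with MEK (2.67 ± 0.12) and ERK inhibitors (2.82 ± 0.12), and stood at 0.95 ± 0.19 alone and 0.92 ± 0.12 with RAF inhibitors. ALDH6A1 rose by 1.33 ± 0.16 with MEK and 1.22 ± 0.17 with ERK inhibitors, and ALDH3B1 by 0.87 ± 0.07 and 0.84 ± 0.07. In PANC-1, of 12 tested, 3 were higher and 1 lower with MEK inhibitors and 1 and 1 with ERK inhibitors. ALDH9A1 was the lower one in both (−0.51 ± 0.13 and −0.47 ± 0.13). Over all genes there, 7.9% and 5.45% were higher and 10.6% and 8.68% lower.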
